A study of Mus musculus with 27 samples.

Results

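Mitochondrial oxidative phosphorylation was examined through the nuclear genes whose symbols begin with Nduf, Uqcr, Sdha to Sdhd, Cox4i, Cox5, Cox6, Cox7, Cox8 or Atp5. This rule uses names only and found 81 of the 9996 genes in the deposited table: 35 subunits of complex I, 4 of complex II, 8 of complex III, 12 of complex IV and 15 of complex V, together with 7 assembly factors that share the prefixes (Ndufaf2, Ndufaf3, Ndufaf4, Ndufaf5, Ndufaf7, Sdhaf2 and Atp5sl). RNA came from macrophages and neutrophils sorted by FACS out of mammary tumours of K14cre;Cdh1F/F;Trp53F/F mice. In this model the keratin 14 promoter drives Cre in epithelium, so that E-cadherin and p53 are deleted in the tumour lineage, and every group below carries this genotype. Mice received a control antibody (called control; 4 neutrophil and 4 macrophage libraries), anti-CSF-1R (4 and 2), which binds the receptor through which colony-stimulating factor 1 keeps most macrophages alive, cisplatin with the control antibody (cisplatin; 3 and 4) or cisplatin with anti-CSF-1R (combination; 4 and 2). The endpoint was 1 day after the second injection in the cisplatin-treated mice and a tumour of 100 mm2 in the rest, so cisplatin and endpoint cannot be told apart wherever a group given cisplatin is set against control. The macrophages of the anti-CSF-1R groups are those a host still has under this antibody. Ages are not given in the labels, and nothing there ties the libraries to separate animals: p-values below measure the spread between these libraries, which may be technical.

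Complex I (NADH dehydrogenase, Nduf genes) and complex II (succinate dehydrogenase, Sdh genes) pass electrons to ubiquinone, complex III (Uqcr genes) passes them to cytochrome c, and complex IV (Cox genes) to oxygen. The proton gradient built by complexes I, III and IV drives complex V, the ATP synthase (Atp5 genes), in which the turning of a membrane ring of c subunits drives catalysis in the F1 head. All chains of complex II, and most of the other complexes, are encoded in the nucleus. Mature neutrophils are known for few mitochondria and a reliance on glycolysis, while macrophages vary their use of respiration with their state. The transcription factor NRF-1 is a known regulator of many respiratory chain genes and binds a GC-rich palindrome.

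Promoters are shown first because NRF-1 is known to act there on genes of this set. RefSeq promoters (assembly GRCm38.p6) matched 68 of the 81 members, and the 250 bases before each start were searched on both strands for letters alone. The full NRF-1 palindrome, written in capitals in the sites below, stood in 5 of the 68 members (7.35%), against 0.877% of the 27025 genes with a promoter and 1.91% of the 7653 of them that the table lists. Each of the 5 sites is printed 5′ to 3′ on the strand of its gene, with the palindrome in capitals and 10 bases on either side. Distances are to the RefSeq start, which can differ from the GENCODE gene extent. By GENCODE, the Atp5g2 site lies within the gene (102662864 to 102672352). The Atp5k site overlaps the gene there (108433244 to 108434448).
Atp5g2, chr15:102671070-102671099, minus strand, 42 bases before the start: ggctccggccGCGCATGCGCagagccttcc
Atp5k, chr5:108434430-108434459, minus strand, 50 bases before the start: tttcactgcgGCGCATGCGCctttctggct
Cox6a1, chr5:115349101-115349130, minus strand, 162 bases before the start: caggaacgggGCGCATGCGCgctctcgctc
Ndufa11, chr17:56717692-56717721, plus strand, 60 bases before the start: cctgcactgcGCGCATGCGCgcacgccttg
Ndufaf4, chr4:24897960-24897989, plus strand, 113 bases before the start: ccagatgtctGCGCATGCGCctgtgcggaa

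The same letters with the fifth base left free, which include the full palindrome, were found in 13 of the 68 members (19.1%), against 4.23% of all promoters and 9.76% of those in the table. CCGGAAG, the ETS site bound by GABP (also called NRF-2), stood in 13 members (19.1%), against 7.83% and 16.5%. The GC box GGGCGG stood in 26 members (38.2%), against 35.4% of all promoters. The windows before Cox5a and Ndufc2, members with large differences between the cell types below, held none of the NRF-1 and ETS letters. Members with the full palindrome also differed below: Atp5g2, Atp5k and Ndufa11 passed as higher in macrophages in 4 contrasts, Ndufaf4 in 2 and Cox6a1 in 1. Such calls were common in the set: of its 81 members, 33 passed as higher in all 4 contrasts and 71 in at least 1. Of all genes, 11.3% passed as higher in all 4. Whether the calls went with the letters was not tested. The 1 GC box of Cox5a (on the reverse strand) is in capitals. A match is a description of letters and not of binding.
Cox5a, chr9:57520982-57521231, plus strand: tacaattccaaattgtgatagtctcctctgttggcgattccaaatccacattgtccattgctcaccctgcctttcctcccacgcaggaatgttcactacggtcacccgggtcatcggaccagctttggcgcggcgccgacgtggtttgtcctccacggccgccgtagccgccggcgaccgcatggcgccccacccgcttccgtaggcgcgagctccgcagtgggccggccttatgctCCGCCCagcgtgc
Ndufc2, chr7:97399753-97400002, plus strand: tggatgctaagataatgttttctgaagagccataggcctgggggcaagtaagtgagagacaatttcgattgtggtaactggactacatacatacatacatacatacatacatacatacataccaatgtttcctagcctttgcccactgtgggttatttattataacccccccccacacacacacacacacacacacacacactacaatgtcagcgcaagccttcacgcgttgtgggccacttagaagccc

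Values are the authors' normalised read counts, which are relative to each library. Fewer cells of a type in a sort and less RNA per cell therefore cannot be told apart. Libraries held from 987511 to 3261820 recovered reads in neutrophils and from 1280894 to 7439187 in macrophages. The sort labels were checked against markers: in the control groups, 13 of 13 macrophage markers rose and 12 of 12 neutrophil markers fell in macrophages relative to neutrophils. The summed macrophage markers reached 2694 to 5839 in the neutrophil libraries and 18111 to 36912 in the macrophage libraries, and the summed neutrophil markers ranged from 202 to 1652 in the macrophage libraries and were at least 26852 in the neutrophil libraries. Some libraries stood apart. The second anti-CSF-1R macrophage library had a summed mast cell or basophil marker value of 9621, against 19.4 in the first. S100a8, a calcium-binding protein of neutrophils, was at 20258 in the second cisplatin and 21187 in the second combination neutrophil library. The other 2 cisplatin libraries were at 4724 and 4747, and the other 3 combination libraries at 7004, 10342 and 12558. The second anti-CSF-1R neutrophil library was at 13839.

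Taken as averages, complexes I to V were each higher in macrophages than in neutrophils in every library. To show this by library, each gene's log2 value was set against its mean over the 27 libraries and averaged over the complex. Complex I ranged from -1.04 to -0.15 in the 15 neutrophil libraries and from 0.27 to 0.92 in the 12 macrophage libraries, which leaves a gap between the cell types. The ranges were -1.02 to 0.11 and 0.15 to 0.75 for complex II, -1.06 to -0.13 and 0.23 to 1.06 for complex III, -0.97 to -0.07 and -0.03 to 1.01 for complex IV, and -0.85 to -0.09 and 0.17 to 0.91 for complex V. None of the 5 complexes overlapped between the cell types, although complex IV came close. The lowest macrophage library was the second cisplatin library in all 5 cases, and the highest neutrophil library was the fourth combination library for all but complex II. That cisplatin library had the fewest recovered reads of the macrophage libraries (1280894). That combination library had the most of the neutrophil libraries (3261820). The part of read depth in these positions was not tested. The 7 assembly factors did overlap, at -0.75 to 0.11 and -0.02 to 0.67. Summed over the 81 genes, normalised counts were 3765 to 5963 (median 4882) in neutrophils and 6328 to 10252 (median 8753) in macrophages, again without overlap.

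**Figure D1:**
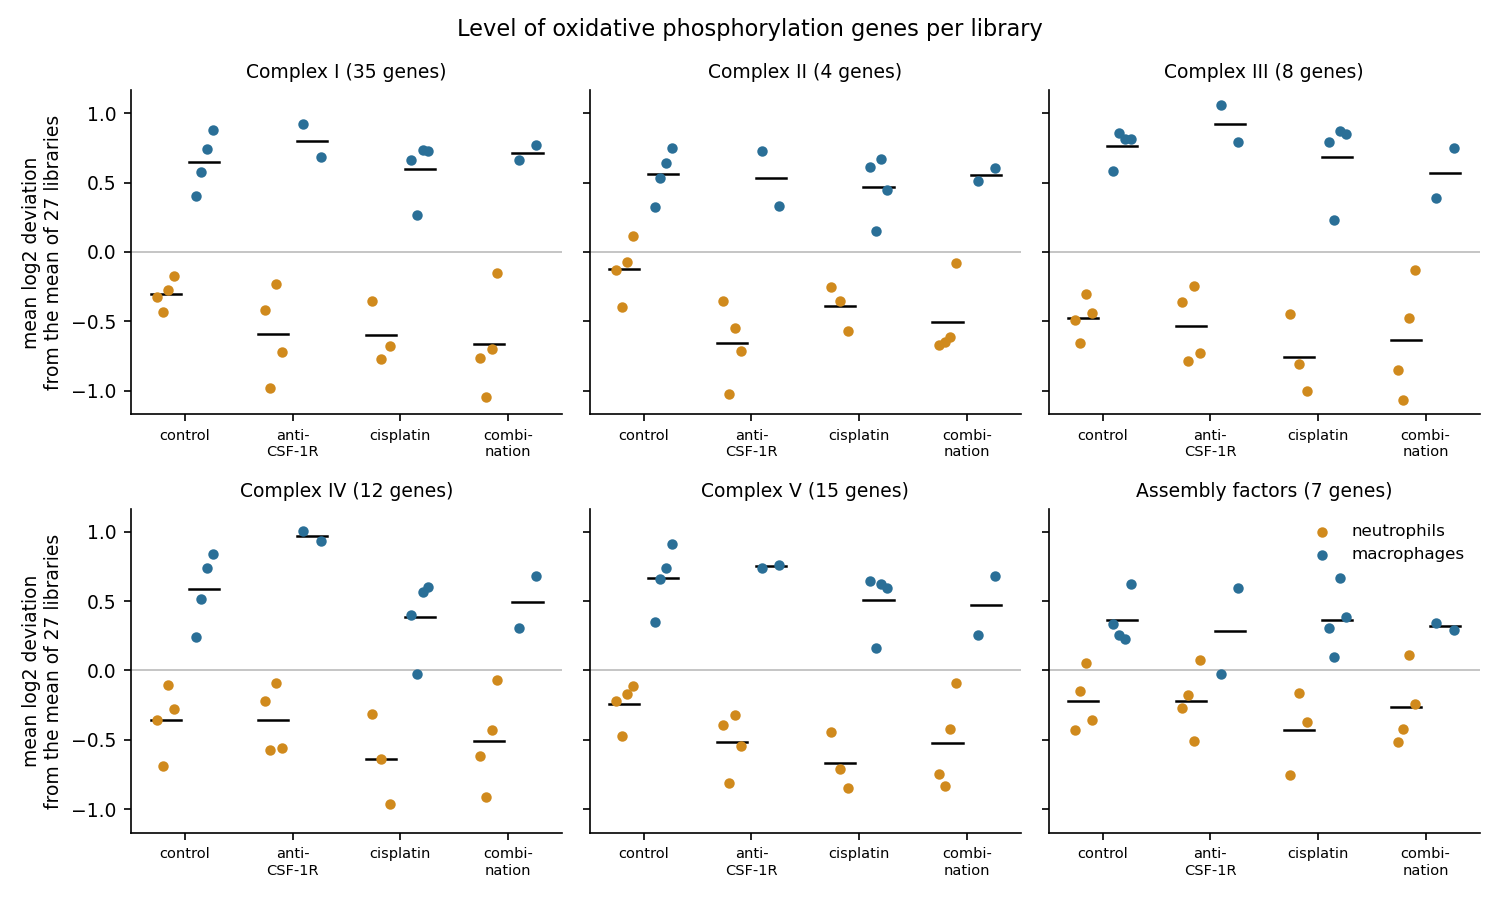
Mean log2 deviation of each complex from its mean over the 27 libraries (vertical axis, log2 units), with 1 point per library and 1 panel per complex, grouped by cell type and treatment. Macrophage points lie above all neutrophil points in the panels of complexes I to V, while the assembly factors overlap.

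In the control groups, 50 of the 81 genes rose and 1 fell in macrophages relative to neutrophils (limma, Benjamini-Hochberg adjusted p under 0.05 over all 9902 genes tested); 26.6% of all genes passed higher and 24.8% lower. The counts higher and lower were 53 and 0 under anti-CSF-1R (21.5% and 21.4% of all genes), 59 and 1 under cisplatin (29.3% and 27.6%), and 51 and 1 under the combination (22.9% and 23.9%). Median log2 differences of the 81 genes were 0.85, 1.16, 1.10 and 1.08, against 0.13, 0.10, 0.13 and 0.12 for all genes. Every macrophage library lay above every neutrophil library for 47, 66, 52 and 61 of the 81 genes, against 24.8%, 31.0%, 31.1% and 32.8% of all genes. Without the second anti-CSF-1R macrophage library 41 genes passed in that contrast in either direction. The combination count fell to 28 without its second macrophage library; in both cases the lone macrophage library is assumed to vary like the other groups. Without the 2 neutrophil libraries that stood apart, 53 passed under cisplatin and 42 under the combination. The 4 contrasts use separate libraries but come from the same fit of all 8 groups. They share its estimate of the spread of each gene, so calls in several contrasts are not independent. Across them, 33 of the 81 genes passed as higher in all 4, against 11.3% of all genes tested in the 4 contrasts. The 33 come from every complex: 13 from complex I, 1 from complex II, 5 from complex III, 6 from complex IV, 7 from complex V and 1 assembly factor.

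**Figure D2:**
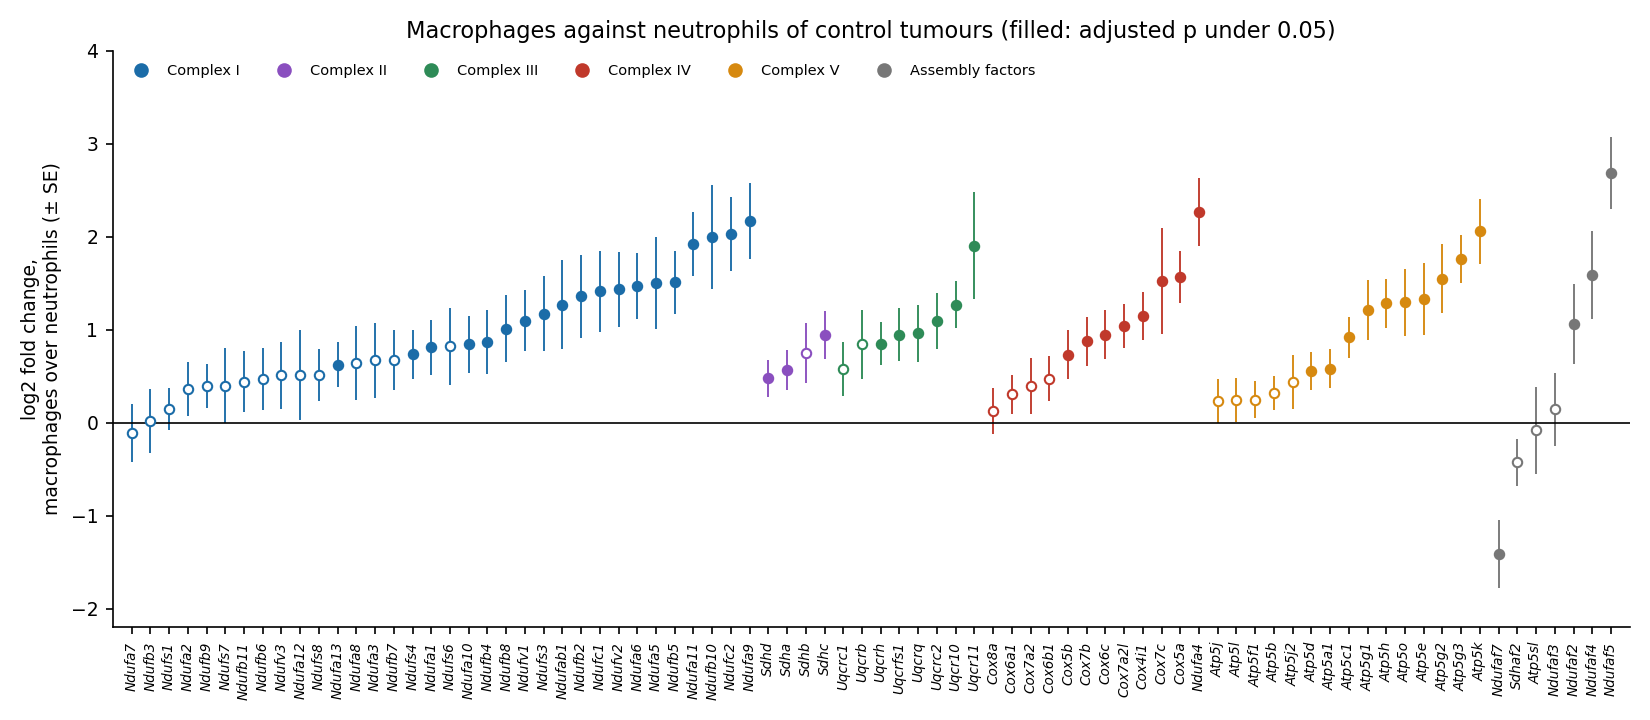
Log2 difference, macrophages minus neutrophils, in the control groups (vertical axis; points with SE bars), for the genes of the set ordered along the horizontal axis by complex, with 1 gene not plotted; filled points passed the adjusted p of 0.05. Nearly all points lie above 0, and the 4 exceptions are Ndufa7, Ndufaf7, Sdhaf2 and Atp5sl.

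Complex I had members that rose among both its core and its accessory subunits. Of its 35 genes, 20 passed as higher in the control contrast, 21 under anti-CSF-1R, 24 under cisplatin and 23 under the combination, with median differences of 0.82, 1.25, 1.24 and 1.08. Of the 28 accessory subunits 16, 18, 18 and 18 passed, and of the 7 core subunits, which carry the flavin and iron-sulphur clusters, 4, 3, 6 and 5. Ndufc2, a membrane-arm accessory subunit (chromosome 7, 97400003 to 97407802, plus strand; all gene positions are on GRCm38, the mm10 build), was among the 6 largest differences without overlap in each of the 4 contrasts: control neutrophils had 19.3, 22.2, 25.9 and 26.8 and control macrophages 86.5, 75.4, 104 and 137 normalised counts. The groups did not overlap. Their means were 23.5 ± 3.50 (SD, n = 4) and 101 ± 26.7 (SD, n = 4), and the log2 difference was 2.03 ± 0.40 (SE), adjusted p = 0.000169. It was 3.25 ± 0.51 (SE), adjusted p = 1.99e-05 under anti-CSF-1R, where the neutrophil libraries were at 5.86, 20.8 and 14.4 (1 left out) and the macrophage libraries at 124 and 126. Ndufc2 also rose under cisplatin, by 2.56 (adjusted p = 2.15e-05), and under the combination, by 2.46 (adjusted p = 0.000224).

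Ndufa9, an accessory subunit at the joint of the complex I arms (chromosome 6, 126821721 to 126849136, minus strand), was at 31.1, 26.6, 9.25 and 16.7 in control neutrophils and 51.7, 105, 99.8 and 114 in control macrophages, without overlap. The log2 difference was 2.16 ± 0.41 (SE), adjusted p = 0.000115, and in the combination groups 3.32 ± 0.50 (SE), adjusted p = 9.67e-06, from 14.5, 5.81, 4.90 and 13.0 in neutrophils to 100.3 and 91.0 in macrophages. Ndufb10, another membrane-arm subunit, was at 7.41, 5.91 and 5.55 (1 left out) in control neutrophils and 28.8, 34.9, 19.3 and 31.2 in control macrophages, again without overlap. Its difference was 2.0 ± 0.56 (SE), adjusted p = 0.00473. Ndufa11, which has the NRF-1 letters printed above and helps to hold the membrane arm together, rose in all 4 contrasts and by 2.50 (adjusted p = 6.24e-05) under anti-CSF-1R, where neutrophils were at 12.5, 9.77, 12.7 and 7.75 and macrophages at 62.7 and 65.2. Ndufa5 rose by 2.15 (adjusted p = 0.000723) under cisplatin and 2.16 (adjusted p = 0.00292) under the combination, and the latter call was lost (adjusted p = 0.0727) without the second combination macrophage library. Ndufc1 rose by 2.27 (adjusted p = 0.000251) under cisplatin and Ndufb5 by 2.24 (adjusted p = 8.99e-05) under the combination. Exons of Ndufb5 overlap Mrpl47 on the opposite strand, and no source used here says whether counting used strand.

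Ndufab1, the mitochondrial acyl carrier protein that is also a complex I subunit, was close to the floor of the table in neutrophils of the anti-CSF-1R group. There its neutrophil libraries were at 1, 1.95, 1.16 and 1.11 normalised counts, where 1 is the lowest value the table lists, and its macrophage libraries at 18.6 and 18.8. The groups were far apart, but the fitted difference of 3.11 (adjusted p = 0.000157) depends on the added 1 and is not a bound. The 6 genes of complex I that never passed as higher were Ndufa7, Ndufa8, Ndufa12, Ndufb7, Ndufb9 and the core subunit Ndufs7. Ndufb9 had the highest mean value of the complex I genes over the 8 groups. Per kilobase of transcript it was at 152 ± 20.7 in control macrophages and 117 ± 25.6 in control neutrophils (SD, n = 4 each). Its log2 difference was 0.39 (adjusted p = 0.168), and its exons overlap Gm49356 on the same strand. The gene with the highest mean value was thus not among those that rose, but subunits that rose, such as Ndufc2, came close to it per kilobase in control macrophages.

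The 4 genes of complex II had the lowest median of the 5 complexes in the control contrast, 0.66, and 3 of them rose. Sdha, the flavoprotein that oxidises succinate, was at 182, 130.1, 111 and 188 in control neutrophils and 224, 213, 235 and 211 in control macrophages and rose by 0.56 (adjusted p = 0.0307). Sdhc, a membrane anchor that holds the haem, was at 74.1, 56.2, 66.6 and 77.8 in control neutrophils. Control macrophages were at 117, 127, 140.5 and 144, without overlap, and Sdhc rose by 0.94 (adjusted p = 0.00379). It was the only gene of complex II to pass in all 4 contrasts. Sdhd, the other anchor, rose by 0.48 (adjusted p = 0.0465) in the control contrast, and Sdhb, the iron-sulphur subunit, differed by 0.75 (adjusted p = 0.0504) and missed the threshold. Under anti-CSF-1R the differences were 0.16 (adjusted p = 0.661) for Sdha, 1.58 (adjusted p = 0.00202) for Sdhb, 1.91 (adjusted p = 3.38e-05) for Sdhc and 1.13 (adjusted p = 0.000657) for Sdhd.

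All 8 genes of complex III passed as higher under anti-CSF-1R and under cisplatin, 6 did in the control contrast and 7 under the combination. The median differences were 0.95 (control), 1.38 (anti-CSF-1R), 1.43 (cisplatin) and 1.19 (combination). Uqcr10, Uqcr11, Uqcrc2, Uqcrfs1 (the Rieske iron-sulphur protein) and Uqcrh (the hinge protein) passed in all 4. Uqcr11, a small subunit (chromosome 10, 80402997 to 80406830, minus strand), was at 14.3, 3.91 and 7.75 (1 left out) in anti-CSF-1R neutrophils and 59.3 and 48.1 in anti-CSF-1R macrophages, a difference of 2.65 ± 0.47 (SE), adjusted p = 0.000118. Uqcrh was the most abundant complex III gene per kilobase, at 244 ± 67.5 in control macrophages and 132 ± 14.2 in control neutrophils (SD, n = 4 each), and rose by 0.85 (adjusted p = 0.0035). A named pseudogene of Uqcrh exists, and the sources used here do not say how reads were shared between them.

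In complex IV, 8 of 12 genes passed as higher in the control contrast, 8 under anti-CSF-1R, 9 under cisplatin and 7 under the combination, with median differences of 0.91, 1.08, 1.07 and 0.96. Cox5a, which binds near the catalytic core of cytochrome c oxidase (chromosome 9, 57521274 to 57532426, plus strand), passed in all 4. Control neutrophil libraries were at 51.8, 84.3, 102 and 76.8 and control macrophage libraries at 140.1, 259, 277 and 272. The lowest macrophage library was still above the highest neutrophil library, and the difference was 1.57 ± 0.28 (SE), adjusted p = 5.65e-05. In the cisplatin groups Cox5a stood at 43.6, 32.2 and 35.7 in neutrophils and 195, 133, 174 and 194 in macrophages, and the difference was 2.19 ± 0.30 (SE), adjusted p = 1.41e-06. In the combination groups it was 2.15 (adjusted p = 1.79e-05).

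Ndufa4, long counted to complex I by its name and now known as a subunit of complex IV (chromosome 6, 11900292 to 11907497, minus strand), had the widest difference of this complex in the control groups. Its values were 48.9, 17.7 and 27.8 (1 left out) in neutrophils and 94.3, 184, 147 and 163 in macrophages, and the log2 difference was 2.26 ± 0.37 (SE), adjusted p = 2.06e-05. Cox7c, a small membrane subunit, was at 7.58, 1 and 1 in cisplatin neutrophils and 11.8 and 17.8 (2 left out) in cisplatin macrophages, with a fitted difference of 2.26 ± 0.74 (SE), adjusted p = 0.0121 that depends on the added 1. This call is lost with the decimal place taken as the most probable one (1.26, adjusted p = 0.121). It is also lost with limma with voom weights (2.505, adjusted p = 0.0823) or without the second cisplatin neutrophil library (adjusted p = 0.0545). Nor is it kept without the fourth cisplatin macrophage library, which leaves a lone readable macrophage value (difference 1.98). The general isoforms Cox4i1, Cox6a1, Cox6b1, Cox7a2 and Cox8a were all listed. The restricted forms Cox4i2, Cox6a2, Cox6b2, Cox7a1, Cox8b and Cox8c were looked for and were not among the genes listed. Cox4i1 was at 474 ± 105 per kilobase in control macrophages, the highest level of complex IV there, and at 211 ± 33.4 in control neutrophils (SD, n = 4 each), where Cox6a1 was higher at 307 ± 54.1. Cox4i1 rose by 1.15 (adjusted p = 0.000684). Cox8a, by contrast, passed in no contrast and differed by 0.12 (adjusted p = 0.697) in the control groups.

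Of the 15 genes of complex V, 10, 12, 12 and 9 passed as higher in the control, anti-CSF-1R, cisplatin and combination contrasts, with medians of 0.92, 1.14, 0.98 and 0.90. In the control contrast 4 of the 5 F1 subunits passed with a median of 0.58, and 6 of the 10 stalk and membrane subunits with a median of 1.25. The 3 genes for the c subunit encode one mature protein with different import sequences. Atp5g3 (chromosome 2, 73908447 to 73911326, minus strand) was at 81.5, 63.6, 55.5 and 53.7 in control neutrophils and 164, 234, 214 and 259 in control macrophages, without overlap, and the difference was 1.76 ± 0.26 (SE), adjusted p = 4.38e-06. Atp5g1 was at 26.7, 39.9, 35.2 and 50.9 in control neutrophils against 74.2, 91.7, 107 and 80.3 in control macrophages and rose by 1.21 (adjusted p = 0.00312). Atp5g2 was at 51.8, 23.7, 31.5 and 28.7 against 98.9, 89.2, 90.2 and 111 and rose by 1.55 (adjusted p = 0.00143). All 3 genes thus lay higher in control macrophages, and none overlapped.

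Under anti-CSF-1R, Atp5g2 was at 27.7, 7.82, 27.8 and 25.4 in neutrophils against 141 and 113 in macrophages and rose by 2.60 (adjusted p = 8.59e-05). Under cisplatin it had only 1 readable neutrophil value, 11.8 (2 left out), against 117, 77.2, 93.8 and 139 in macrophages, and the difference was 3.03 (adjusted p = 0.000147), with the lone library assumed to vary like the other groups. Atp5k, the e subunit that joins ATP synthase dimers (chromosome 5, 108433244 to 108434448, minus strand), was at 5.92, 5.91, 14.8 and 10.2 in control neutrophils and 27.5, 32.4, 46.1 and 55.8 in control macrophages and rose by 2.06 ± 0.35 (SE), adjusted p = 2.72e-05. It rose by 2.70 (adjusted p = 1.79e-05) under anti-CSF-1R. A named pseudogene of Atp5k exists as well. Atp5b, the catalytic beta subunit, was the most abundant of the 81 genes per kilobase, at 925 ± 149 in control macrophages and 736 ± 30.8 in control neutrophils (SD, n = 4 each). Its log2 difference in the control groups, 0.32 (adjusted p = 0.15), missed the threshold.

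**Figure D3:**
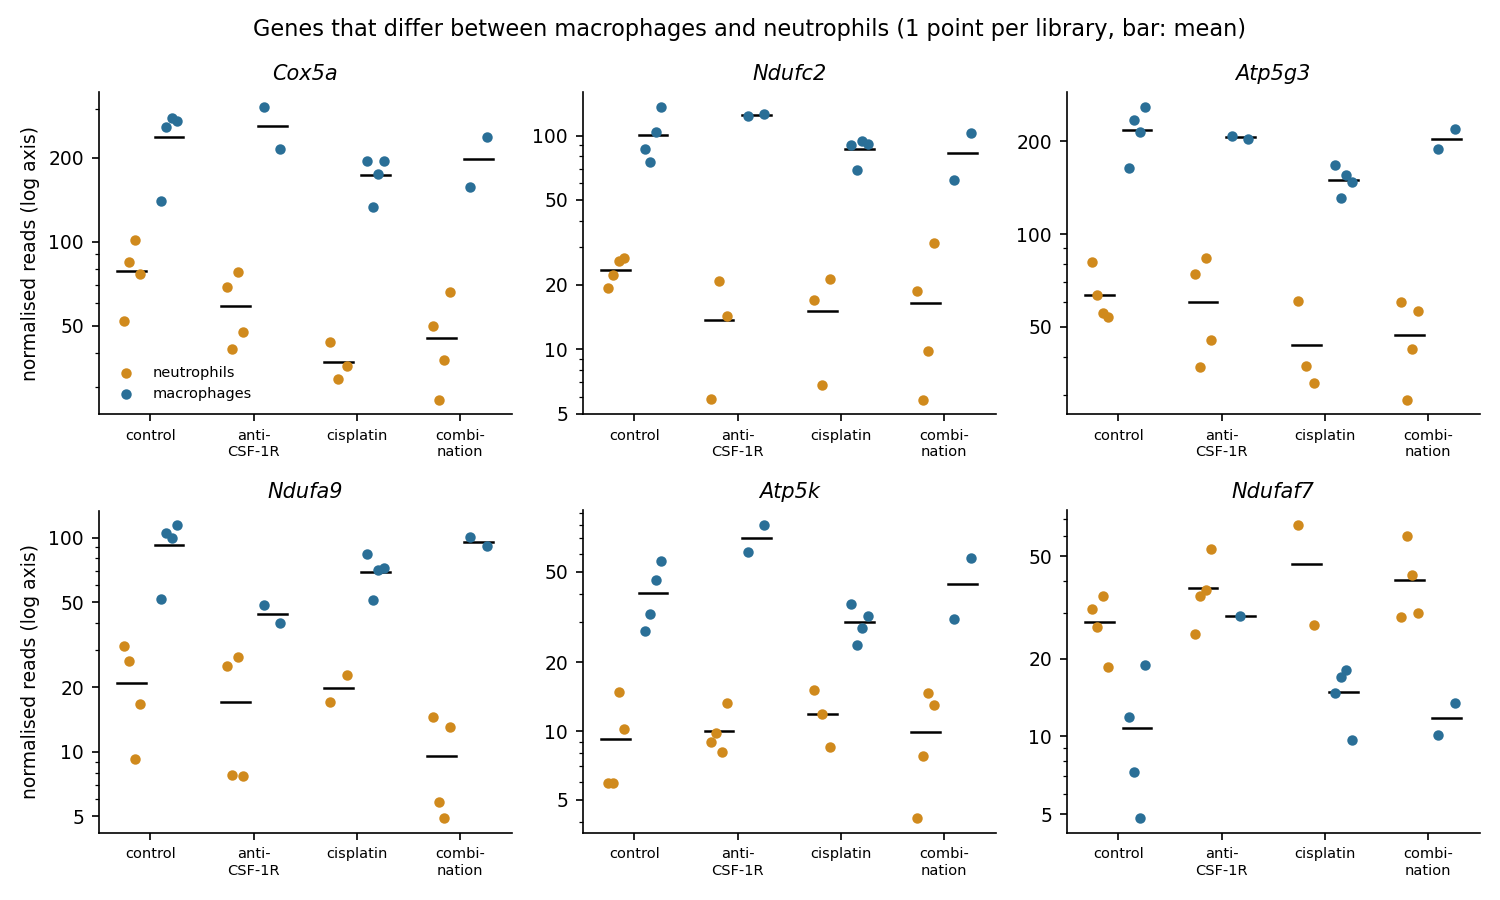
Normalised read counts (log axis) of Cox5a, Ndufc2, Atp5g3, Ndufa9, Atp5k and Ndufaf7 in every library, by cell type and treatment, with 1 point per library. The first 5 genes lie higher in macrophages and Ndufaf7 lies lower in the cisplatin and combination groups, while its control groups overlap by 1 library.

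The assembly factors did not move together. Ndufaf5, a methyltransferase needed to build complex I (chromosome 2, 140170649 to 140203689, plus strand), rose in all 4 contrasts: control neutrophils were at 1, 1.48, 1 and 1, close to the floor of the table, and control macrophages at 12.4, 14.6, 13.1 and 10.6, with a fitted difference of 2.69 ± 0.39 (SE), adjusted p = 3.52e-06 that depends on the added 1. Ndufaf7, another methyltransferase with a part in building complex I (chromosome 17, 78937136 to 78948052, plus strand), went the other way. Its control values were 31.1, 26.6, 35.2 and 18.5 in neutrophils and 11.9, 7.30, 4.82 and 19.0 in macrophages. The highest macrophage library overlapped the lowest neutrophil library, and the difference was -1.41 ± 0.37 (SE), adjusted p = 0.00257. In the cisplatin groups the difference was -1.48 (adjusted p = 0.007) and in the combination groups -1.65 (adjusted p = 0.00426). The cisplatin call is lost with the most probable decimal place (-0.80, adjusted p = 0.18) or with limma with voom weights (-0.89, adjusted p = 0.143). It is not kept without the second cisplatin neutrophil library, which leaves a lone readable neutrophil value (difference -0.86). The combination call is not kept without the first combination macrophage library, which leaves a lone macrophage library (difference -1.45). Ndufaf7 was the only one of the 81 genes to pass as lower in any of the 4 contrasts. Ndufaf3 and Sdhaf2 passed in none.

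Within neutrophils, no gene of the set passed the test under any treatment. Of the 74 genes with enough signal, 0 passed under anti-CSF-1R, cisplatin or the combination against control (limma, adjusted p under 0.05), where 0.132%, 0.0987% and 1.17% of all genes passed. At an unadjusted p under 0.05 the counts were 6, 8 and 10, all lower than control, against 9.78%, 8.40% and 16.3% of all genes in either direction, and limma with voom weights called 0 as well. By value, 56, 57 and 54 of the 74 lay below control, with median log2 differences of -0.26, -0.31 and -0.28, while 49.0%, 47.4% and 47.7% of all genes lay below. These 3 contrasts share the 4 control libraries, so their likeness is partly built in. Treated and control libraries did not overlap for 7, 11 and 7 genes, all lower, against 4.81%, 5.97% and 5.26% of all genes. Values left out make this easier to meet: under cisplatin, Atp5g2 and Ndufs7 had only 1 readable cisplatin value each. The 13 macrophage markers summed to 3432 to 5616 in control, 2903 to 5839 in anti-CSF-1R, 3128 to 4553 in cisplatin and 2694 to 4789 in combination neutrophils, and none of the 13 was listed at 1 in every library of a group. The 4 measured dendritic cell markers summed to 46.3 to 90.2, 103 to 251, 17.9 to 52.8 and 85.2 to 220.3 in the same order. Transcript length moved with the neutrophil values in 2 of the 3 contrasts. Its Spearman correlation with the log2 difference was -0.33 over the 74 genes and 0.11 over all genes under anti-CSF-1R, -0.34 and 0.04 under the combination, and 0.03 and 0.11 under cisplatin. The 45 genes with transcripts under 1000 bases had medians of -0.17 (anti-CSF-1R), -0.33 (cisplatin) and -0.20 (combination), against -0.37, -0.29 and -0.43 for the other 29. The part of these cells and of length in the values of the set was not tested.

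**Figure D4:**
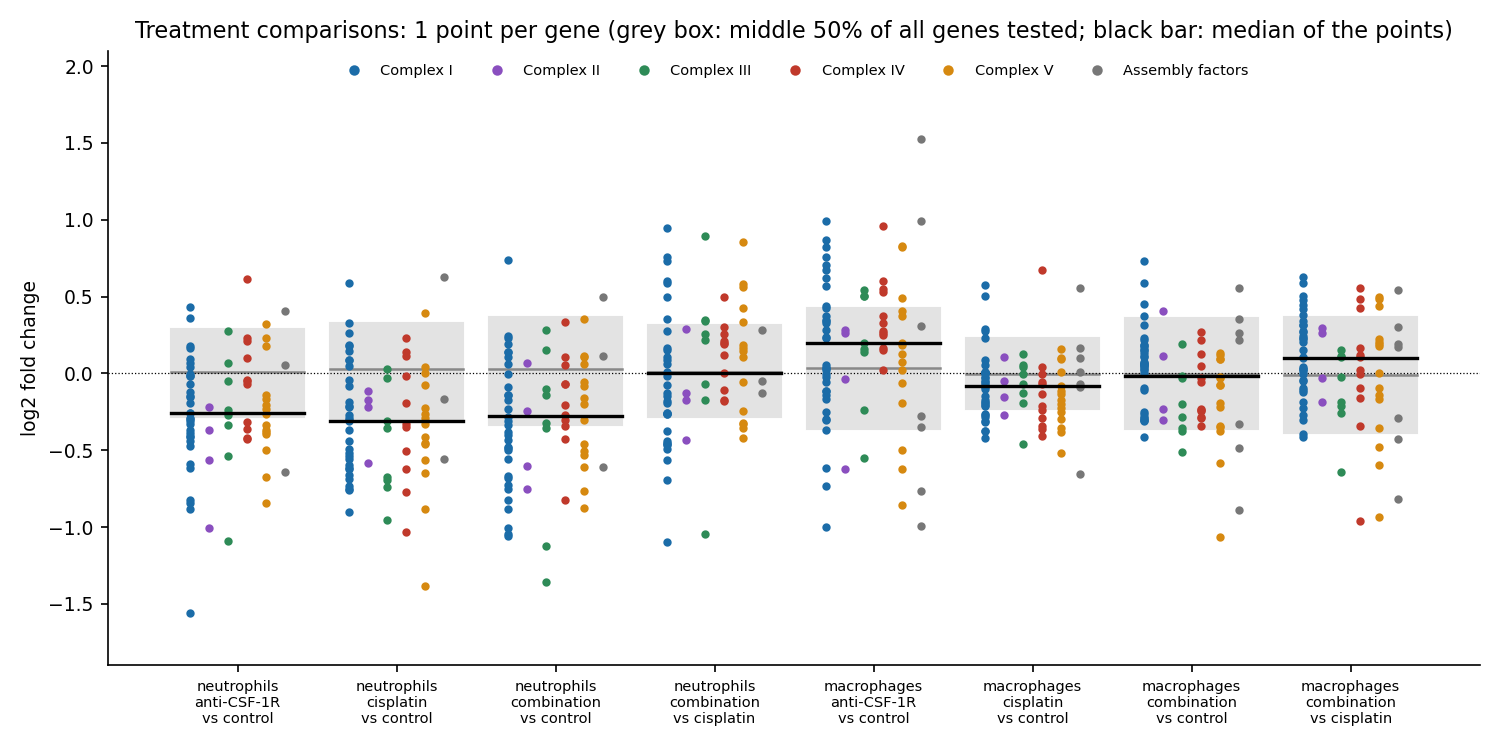
Log2 difference of each member (points) in the 8 treatment contrasts within a cell type, with the median of the members (black bar) beside the middle 50% of all genes (grey box). Member medians lie below 0 in the 3 neutrophil contrasts with control, at -0.26, -0.31 and -0.28.

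Uqcrc1 and 2 genes for the F1 part of the ATP synthase came closest to the threshold in neutrophils. Atp5a1, the alpha subunit, was at 566, 423, 455 and 486 in control, 377, 325, 363 and 298 in anti-CSF-1R, 373, 317 and 361 in cisplatin and 222, 194, 412 and 262 in combination neutrophils. All 11 treated libraries lay below the lowest control library. The differences from control were -0.50 (adjusted p = 0.479), -0.46 (adjusted p = 0.612) and -0.88 ± 0.22 (SE), adjusted p = 0.0589, none of which passed. Atp5b was at 1468, 1327, 1421 and 1423 in control neutrophils. It was at 1128, 936, 1227 and 1010.3 under anti-CSF-1R, 1096, 1065 and 1319 under cisplatin and 883, 879, 1050.2 and 885 under the combination, where the difference was -0.61 ± 0.19 (SE), adjusted p = 0.107. Every treated library was again below every control library. Atp5d, the delta subunit of the central stalk, was at 104, 114, 105 and 131 in control, 92.9, 74.3, 92.7 and 87.4 under anti-CSF-1R, 89.1, 72.8 and 94.1 under cisplatin and 52.0, 69.7, 63.7 and 83.1 under the combination. Its treated libraries also lay below all control libraries, and its combination difference was -0.76 ± 0.21 (SE), adjusted p = 0.0794. Exons of Atp5d overlap Cbarp, and those of Atp5a1 overlap Haus1, on the opposite strand.

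Uqcrc1, a core protein of complex III (chromosome 9, 108936633 to 108949623, plus strand), had the smallest adjusted p of the neutrophil set. It was at 37.0, 32.5, 33.3 and 52.8 in control, 17.0, 15.6, 27.8 and 12.2 in anti-CSF-1R, 34.1, 38.9 and 21.4 in cisplatin and 10.4, 9.68, 16.3 and 24.7 in combination neutrophils. The difference was -1.36 ± 0.34 (SE), adjusted p = 0.0556 for the combination and -1.09 ± 0.34 (SE), adjusted p = 0.277 for anti-CSF-1R, and in both contrasts the groups did not overlap. With all 8 groups in one fit, which estimates the spread from more libraries, 3 genes passed for the combination: Uqcrc1 (adjusted p = 0.00944), Atp5a1 (adjusted p = 0.0189) and Atp5d (adjusted p = 0.0321). Atp5a1 also passed after quantile normalisation (adjusted p = 0.0381) and without the third combination neutrophil library (-1.09, adjusted p = 0.0181). Sdhc was at 42.9, 21.5, 39.4 and 34.3 under anti-CSF-1R against 74.1, 56.2, 66.6 and 77.8 in control (-1.0 ± 0.31, SE, adjusted p = 0.269). Cox5a was at 43.6, 32.2 and 35.7 under cisplatin against 51.8, 84.3, 102 and 76.8 in control (-1.03 ± 0.33, SE, adjusted p = 0.382). Ndufab1 under anti-CSF-1R (-1.56, adjusted p = 0.391), Ndufs4 under cisplatin (-0.76, adjusted p = 0.484) and Uqcr10 under cisplatin (-0.74, adjusted p = 0.507) did not pass either.

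**Figure D5:**
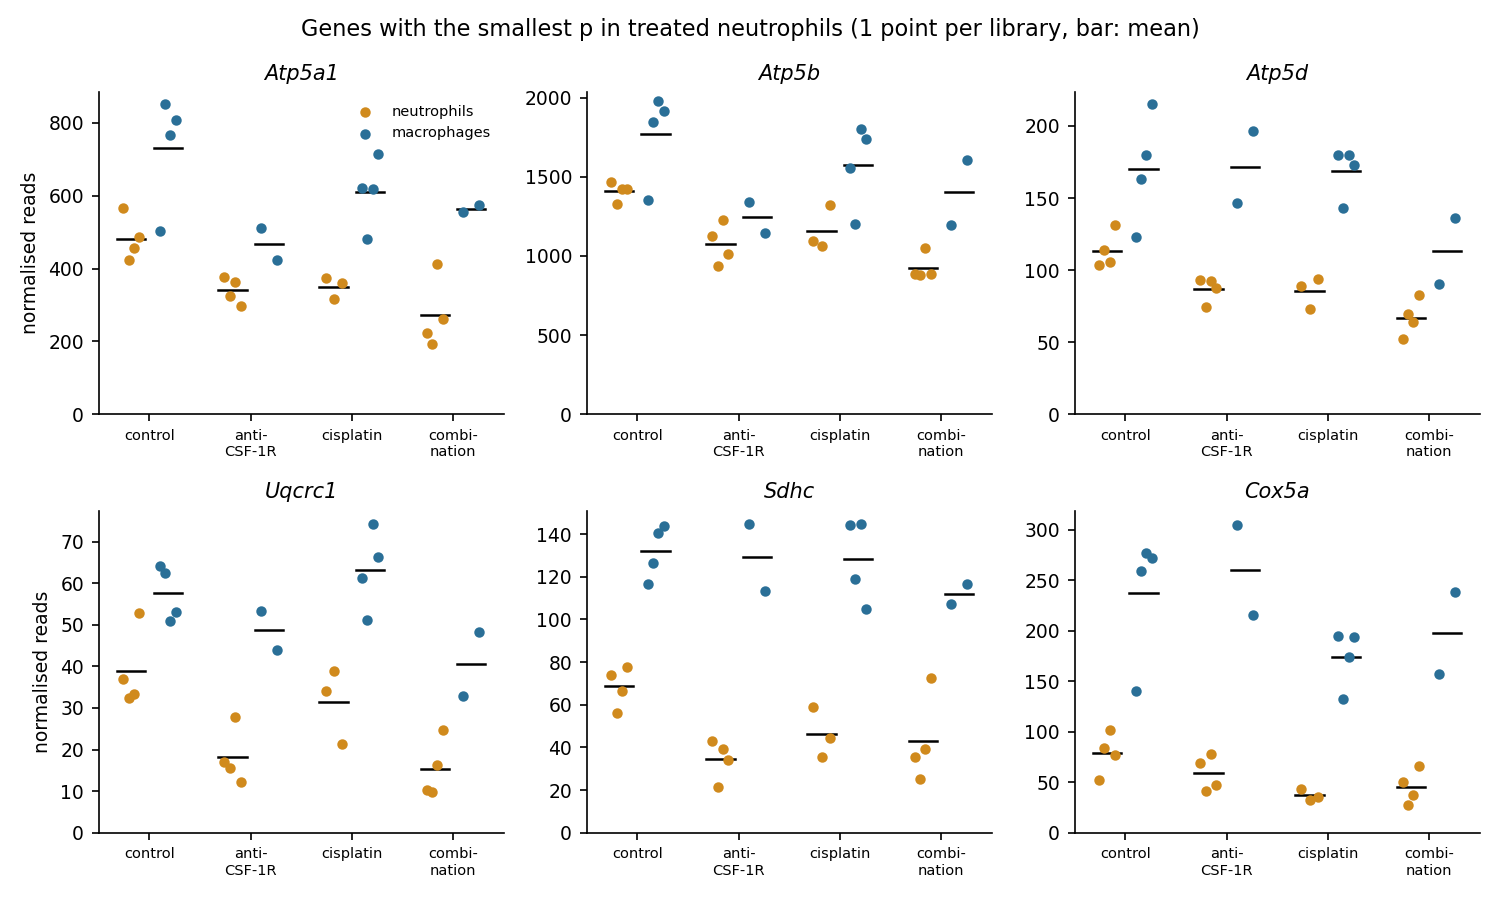
Normalised read counts (linear axis from 0) of Atp5a1, Atp5b, Atp5d, Uqcrc1, Sdhc and Cox5a in every library, by cell type and treatment, with 1 point per library. For Atp5a1, Atp5b and Atp5d all treated neutrophil libraries lie below the 4 control neutrophil libraries.

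By complex, the neutrophil values leaned the same way without any call. Under anti-CSF-1R 26 of 33 complex I genes, 4 of 4 of complex II, 6 of 8 of complex III, 7 of 11 of complex IV and 12 of 15 of complex V lay below control. All 7 core subunits of complex I did so, and all 7 also did under the combination (median -0.56), but 5 of 7 under cisplatin, where Ndufv1 and Ndufv2 lay above control. Between the combination and cisplatin alone the set had no lean: 38 of 74 genes were higher and 36 lower than in cisplatin neutrophils. In that contrast 0 passed, where 0.0658% of all genes did, and 3 of 74 had an unadjusted p under 0.05, against 9.85% of all genes. They were Ndufs4 (0.95, adjusted p = 0.202), Uqcr10 (0.90, adjusted p = 0.268) and Uqcrc1 (-1.05, adjusted p = 0.318). Ndufs4, an accessory subunit of the complex I peripheral arm, was at 30.3, 13.5 and 18.5 in cisplatin and 41.6, 31.0, 40.8 and 43.9 in combination neutrophils. Uqcr10 was at 26.5, 20.3 and 21.4 and 29.1, 40.7, 42.5 and 67.3. In both genes all combination libraries lay above all cisplatin libraries.

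Macrophages showed no call in the set under any treatment either. Under anti-CSF-1R 0 of 81 passed, where 3.80% of all genes did. By value 54 lay above and 27 below control (median 0.20), while 47.6% of all genes lay below (median 0.03). An unadjusted p under 0.05 was reached by 18, against 21.6% of all genes. The complexes differed in value: 12 of 12 complex IV genes and 20 of 28 accessory complex I genes lay above control, and 6 of 7 core complex I genes below it. Transcript length moved with this contrast too. Over the 81 genes the Spearman correlation of log2 difference with length was -0.45, against -0.14 over 8825 genes (genes share their libraries, and no p is given), and the 49 genes with transcripts under 1000 bases had a median of 0.33 against -0.02 for the other 32. Ndufa9 passed without the first control macrophage library (-1.25, adjusted p = 0.0254), and Atp5e and Ndufb5 passed without the fourth. The part of length, of the mast cell signal in the second library and of the neutrophil markers (1093 to 1487 in these macrophages, 272 to 1652 in control) in these values was not tested.

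Ndufa9 was at 48.3 and 40.0 in the anti-CSF-1R macrophage libraries against 51.7, 105, 99.8 and 114 in control (-1.0 ± 0.31, SE, adjusted p = 0.0832). Cox6c, a small complex IV subunit, was at 139 and 192 against 69.6, 68.1, 95.0 and 108 (0.96 ± 0.31, SE, adjusted p = 0.0965), and Ndufb3 at 48.3 and 31.8 against 15.6, 20.3, 24.1 and 17.9 (0.99 ± 0.32, SE, adjusted p = 0.0972). In these 3 genes the 2 treated libraries lay outside the control range. That was so for 16 genes upward and 8 downward in this contrast, against 16.0% and 14.9% of all genes, which is near the background for groups of this size.

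Under cisplatin, macrophage values of the set lay below control more often than above it, by small amounts. Of the 81 genes 0 passed, where 0.424% of all genes did, and 1 had an unadjusted p under 0.05 (10.3% of all genes). By value 26 lay above and 55 below control with a median of -0.08, while 50.5% of all genes lay below with a median of -0.004. The gene with the smallest p was Atp5g3, at 167, 130.5, 155 and 148 against 164, 234, 214 and 259 (-0.52 ± 0.18, SE, adjusted p = 0.296), and its groups overlapped. For the combination 0 passed, where 3.29% of all genes did, and 3 had an unadjusted p under 0.05 (18.4% of all genes), with 40 above and 41 below control. Here another c-subunit gene came closest: Atp5g1 was at 28.4 and 59.7 in the combination against 74.2, 91.7, 107 and 80.3 in control (-1.06 ± 0.30, SE, adjusted p = 0.0703). Set against cisplatin alone (90.8, 61.3, 96.4 and 75.1), the difference was -0.93 ± 0.30 (SE), adjusted p = 0.098, and 0 of 81 genes passed there, where 4.01% of all genes did, with 4 at an unadjusted p under 0.05 (20.5% of all genes).

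Whether the cell types responded differently was tested as the macrophage minus the neutrophil response. No gene of the set passed for anti-CSF-1R (0.215% of all genes did) or the combination (0.0308%). At an unadjusted p under 0.05 there were 6 and 3 of the 81 genes, against 9.54% and 8.52% of all genes, all with the higher response in macrophages. They were led by Ndufa2 (1.18, adjusted p = 0.371), Cox6c (1.03, adjusted p = 0.412) and Ndufab1 (1.84, adjusted p = 0.419) for anti-CSF-1R, and by Ndufs1 (0.93, adjusted p = 0.431), Ndufa10 (1.05, adjusted p = 0.554) and Atp5sl (1.52, adjusted p = 0.581) for the combination. A different response of the cell types to these 2 treatments was thus not detectable in the set with these numbers of libraries. The response to cisplatin alone was not compared between them.

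Other mitochondrial genes are given for the control contrast, to be read against the 26.6% of all genes that passed higher and the 24.8% that passed lower. There 10 of 20 genes of the citrate cycle and pyruvate entry rose in macrophages and 0 fell (median 0.73). Of the inner membrane carriers, porins and prohibitins 8 of 11 rose (0.83), of the complex V proteins and assembly factors outside the name rule 4 of 7 (0.80), and of the complex III chain and assembly genes outside it 3 of 5 (1.24). Mitochondrial ribosomal proteins rose in 31 and fell in 3 of 70 (0.76), and complex IV assembly factors rose in 6 and fell in 1 of 16 (0.66). Of the regulators of mitochondrial transcription and biogenesis 0 of 11 rose and 4 fell (median -0.27). Of the electron carriers 2 of 12 rose and 3 fell, and of 5 complex I assembly genes outside the name rule 0 passed. The chains encoded in mitochondrial DNA were not analysed here.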

How the data were processed

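RNA of sorted tumour macrophages and neutrophils (27 libraries) was amplified from 10 ng (NuGen Ovation V2, then Encore Rapid), per the labels' protocols. Per the submitters' processing notes, the build was mm10 and the tools were TopHat2 2.0.11, Partek 6.6, DESeq2, R 3.3.1 and CASAVA 1.8. The deposited signal values are read counts the authors scaled per library, as the steps between values show. Values below 1000 could have lost their decimal point. It was restored here so that each value is a whole number of reads (tolerance 0.02) and most probable given its group (so the groups enter this choice), and values under 95% probability were left out (2.88% of those of the 81 genes). The lowest listed value is 1.

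Log2(value + 1) was tested with limma 3.58.1 (lmFit, eBayes with trend, two-sided, R 4.3.3) over all genes that reached 10 in 2 or more libraries, with Benjamini-Hochberg adjustment over all genes and a threshold of 0.05. Contrasts within a cell type used its 4 groups in one fit, and the other contrasts all 8. Differences refer to log2(value + 1), a scale that understates the change of low genes. Counts were made with pandas 2.3.3, numpy 2.4.6 and scipy 1.17.1 in Python 3.11.15 (figures with matplotlib 3.10.9), and scripts were tested on simulated data. Positions and transcript lengths are from GENCODE on GRCm38; exons of 4 members overlap another gene there on the same strand and of 26 on the opposite strand, and 5 have a pseudogene named after them.

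The genes named were, in each contrast, up to 6 in each direction with the largest differences among those that passed without overlap, otherwise the 3 with the smallest p, the highest mean value of each complex, and the Sdh and c-subunit families. Others, such as Atp5b in neutrophils, Atp5e, Cox8a and Ndufaf3, were chosen after their values were seen. The members and gene lists were chosen with earlier results of these data known. Alternatives were a pseudocount of 10, no filter, quantile normalisation, voom on decoded reads, other decoding (without groups, or every most probable place), other groups in the fit, and leaving out libraries. Replicates were numbered in accession order. The values of 1 member are not reported here.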

Additional observations from a re-analysis of the deposited data

Results flagged for a closer look

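Among 200 groups of 4 libraries examined over 42 named genes, 12 had 1 library far from the other 3 by Dixon's criterion at the 95% level, and chance alone marks about 1 group in 20. In neutrophils, Atp5b stood at 1050.2 in the third combination library against 879 to 885 in the others. Atp5g2 stood at 7.82 in the second anti-CSF-1R library (others 25.4 to 27.8) and at 46.0 in the fourth combination library (others 15.5 to 18.7). That library was also high for Ndufa4, at 58.3 against 18.7 to 24.5. Cox8a was at 87.3 in the first combination library (others 144 to 153). Close to the floor of the table, Ndufab1 was at 1.95 in the second anti-CSF-1R library (others 1 to 1.16). Ndufaf5 was at 1.48 in the second control library (others 1) and at 5.81 in the second combination library (others 1.63 to 2.08). In these libraries 1 read had the value 1.95 (second anti-CSF-1R), 1.48 (second control) and 1.94 (second combination). The values of 1.95 and 1.48 are therefore 1 read each. Flags this near the floor rest on a few reads and on library scale, so they do not set a library apart.

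In macrophages, Cox5a was at 140.1 in the first control library against 259 to 277 in the others, and Ndufb5 at 126.7 in the fourth control library against 65.7 to 73.3. The second cisplatin library had the fewest recovered reads of the macrophage libraries and was the lowest of them for complexes I to V. It was low for Cox7a2 (65.8, others 96.2 to 100.4) and Ndufs1 (39.7, others 57.6 to 58.5).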

How the results depend on the processing

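No paired analysis was possible because the labels carry no replicate numbers. For the 56 gene-by-contrast differences chosen by the naming rule of each contrast, no direction reversed under the alternatives run; among their values under settings other than leaving out 1 library, 402 stayed on their side of the threshold, 5 lost and 4 gained a call. In the combination against control in neutrophils, 2 genes passed after quantile normalisation (Atp5a1 and Atp5b) and 3 with all 8 groups in one fit, against 0, and leaving out 1 library gave 0 to 1 (1 without the third combination library, Atp5a1). In anti-CSF-1R against control in macrophages, leaving out 1 library gave 0 to 2 (Ndufa9 without the first control library, Atp5e and Ndufb5 without the fourth). Between the cell types, leaving out 1 library gave 39 to 49 genes in control (51 with all), 36 to 55 under anti-CSF-1R (53), 49 to 63 under cisplatin (60) and 28 to 54 under the combination (52); the lowest of the last came without its second macrophage library. The other alternatives gave 48 to 54, 48 to 57, 53 to 63 and 37 to 55. Where a left-out library leaves 1 in a group, that library is assumed to vary like the others. Groups of 2 macrophage libraries and values near 1 limit what could be detected.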
